A study of Caenorhabditis elegans with 17 samples.

Results

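The proteasome subunit genes of Caenorhabditis elegans were followed across 4 RNAi treatments of adult animals. Members were taken by name, as every gene of the expression table called pas, pbs, rpt or rpn with a number, with a level of at least 1 FPKM (fragments scaled to transcript length and to the mapped fragments of the library) in at least 4 of the 17 libraries. The names matched 33 of the 26786 genes in the table, and all 33 passed the filter, which left 13084 genes for testing. The rule uses names and levels, and the genes were picked for study with earlier results of these data known. Of the 33 genes, 14 encode the core particle, as 7 alpha ring and 7 beta ring subunits. The other 19 encode the regulatory particle, as 6 ATPases of its base, 4 further base subunits and 9 lid genes, among them the paralogs rpn-6.1 and rpn-6.2. The genes lie apart in the WBcel235 genome, with 10 on chromosome I, 7 on II, 8 on III, 3 on IV and 5 on V.

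The proteasome is the main protease of the cytosol and nucleus and degrades proteins that carry ubiquitin. Its barrel-shaped core encloses the proteolytic sites of the beta subunits behind a gate formed by the alpha subunits, and the regulatory particle binds the substrate, removes its ubiquitin, unfolds it with the ATPases and feeds it into the barrel. In the worm, subunit genes are known to be induced together by the transcription factor SKN-1 when proteasome function is impaired, and polyglutamine proteins such as the one made by these animals are studied as a load on protein quality control.

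All animals carried rmIs133 [unc-54p::Q40::YFP], in which the promoter of a body wall muscle myosin gene drives a fluorescent polyglutamine protein in muscle, while RNA came from pellets of whole animals. They hatched on HT115(DE3) bacteria with the empty vector L4440 (n = 5), or with double-stranded RNA against ash-2 (n = 4), against hsf-1 (n = 4) or against both (ash-2 + hsf-1, n = 4), and were collected as day 1 adults after 96 h at 20 °C. The gene ash-2 encodes a subunit of the complexes that methylate histone H3 at lysine K4, and hsf-1 encodes the factor that drives heat shock genes. For ash-2 and ash-2 + hsf-1 the parents had lived on ash-2 RNAi as well, so the treatment of the animals and that of their parents cannot be told apart. The labels name the libraries of a group biological replicates, with no word on separate cultures, and p-values measure the spread between them. In whole-animal RNA, fewer cells of a type and less RNA per cell cannot be told apart.

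Each group carried the mark of its RNAi. The ash-2 transcript was at 14.14 to 19.07 FPKM with L4440, at 2.041 to 8.676 with ash-2 RNAi and at 3.916 to 11.56 with both. The hsf-1 transcript was at 26.45 to 33.79 FPKM with L4440, at 7.331 to 15.06 with hsf-1 RNAi and at 6.046 to 11.65 with both. In the ash-2 libraries the hsf-1 transcript was at 16.32, 41.47, 22.14 and 40.19 FPKM. Replicates 1 and 3 thus lay below every L4440 library in hsf-1, and replicates 2 and 4 above every one. The library labelled hsf-1 replicate 4 was also low in ash-2, at 5.574 FPKM. It was 1 of 4 libraries in which under 11000 genes reached 1 FPKM, together with ash-2 replicates 1 and 3 and ash-2 + hsf-1 replicate 3 (9401 to 10745 genes, against 11170 to 13066 in the others). A further library, ash-2 + hsf-1 replicate 4, had 11556 such genes but stood apart in its proteasome genes, as described below. Low FPKM steps implied 16.3 to 19.5 M fragments per library, which is an estimate, since the values are not counts. Markers of germline, sperm, body wall muscle, intestine, neuron and hypodermis were detected, but 4 of the listed markers were not tested: spe-9, unc-10 and unc-31 lay below the filter on low levels, and opt-2 was not analysed here. None of the tested markers was at 0 in every library.

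With the empty vector, the subunit genes formed a narrow band of high levels. Apart from rpn-6.2, their mean levels ran from 102.04 FPKM for rpn-10 to 407.94 FPKM for pbs-1, and each lay above at least 91.9% of the genes tested. The highest was pbs-1, the beta subunit with caspase-like activity (407.94 ± 12.2 FPKM, SD, n = 5), then pas-3 (327.48 ± 18.9), pas-6 (286.40 ± 17.1) and pbs-7 (263.70 ± 15.1). In this order the ranges of pbs-1 and pas-3 did not overlap, whereas those of pas-6 (268.6 to 307.2) and pbs-7 (242.8 to 282.3) did. The lowest of the band were rpn-6.1 (109.91 ± 9.60), rpt-4 (102.29 ± 5.18) and rpn-10 (102.04 ± 9.79), which overlapped each other. On average core genes stood above regulatory genes, rpn-6.2 among the latter, with a ratio of mean FPKM per gene of 1.59 ± 0.023 with L4440 (range 1.56 to 1.63). Single genes of the core and regulatory particle overlapped, as rpn-11 of the lid was at a mean of 229.28 FPKM and pbs-4 of the core at 135.4 FPKM. These are levels per transcript length and not amounts of protein.

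The paralog rpn-6.2 stood far below its namesake. It was at 9.701, 10.94, 8.46, 9.378 and 8.801 FPKM in the L4440 libraries, which is 6.83% to 11.2% of the rpn-6.1 level in the same library. The order of the 33 levels was much the same in every group. Across the subunit genes, the log2 mean level of a group and that of L4440 had a Pearson r of 0.99 for ash-2, 1.0 for hsf-1 and 0.99 for ash-2 + hsf-1, and without rpn-6.2 of 0.98, 0.98 and 0.96 (n = 32). This is a description across genes, which share libraries.

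With ash-2 RNAi, 4 subunit genes from 4 places in the complex were higher than with L4440: the lid gene rpn-6.1, the beta ring gene pbs-7, the base ATPase gene rpt-3 and the ubiquitin receptor gene rpn-10. Of the 33 genes, none was lower, and 32 had a positive change. The median change of the 33 on the log2(FPKM + 0.5) scale was 0.32, beside a median of -0.32 over all genes tested, of which 3976 of 13084 had a positive change. Tests were made with limma across all 13084 genes, and genes at a Benjamini-Hochberg adjusted p under 0.05 were called. Of all genes, 4.17% were called higher and 15.5% lower in this comparison. That split of 546 and 2024 genes moved with the scaling, to 1274 and 2139 with median-of-ratios scaling, 1632 and 1319 under quantile normalization and 1891 and 1904 with a transcript-length trend removed. Among the 2164 genes with at least 50 FPKM in L4440, a level like that of most subunits, the median was 0.07 and 1251 were positive.

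**Figure D1:**
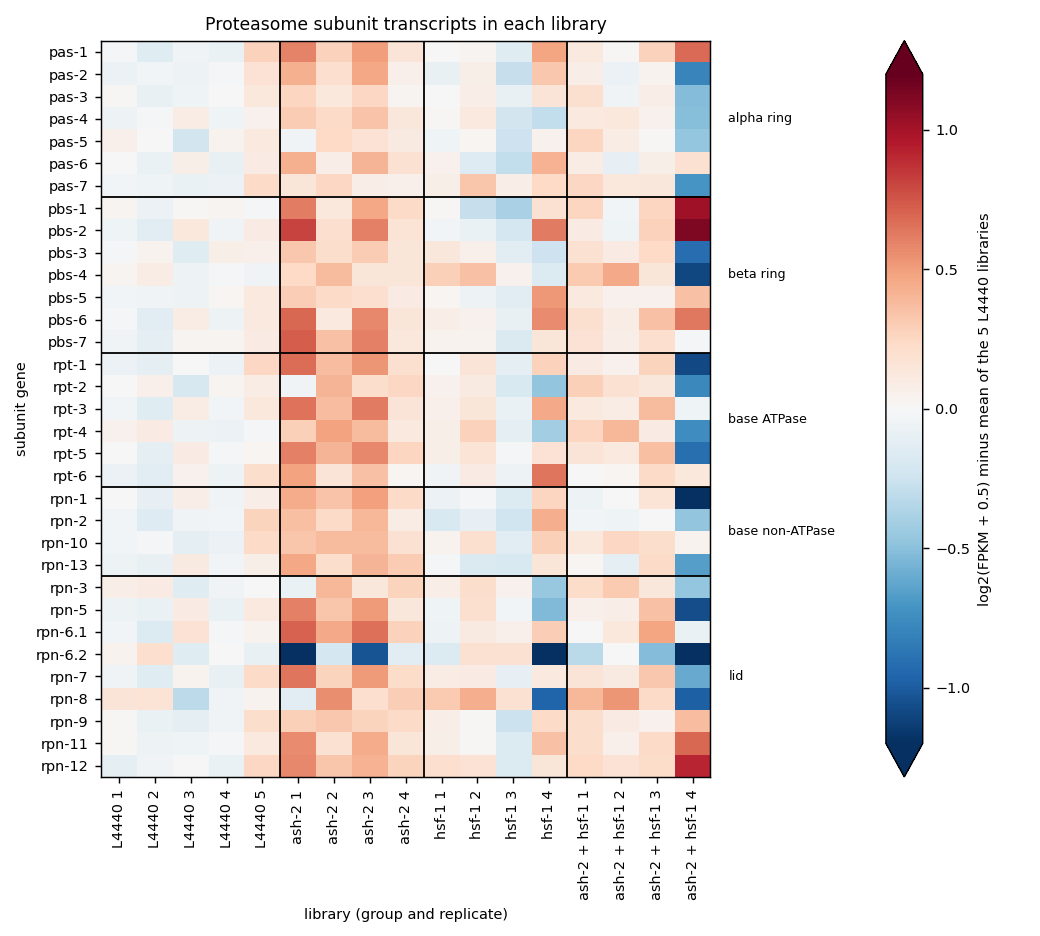
Each square shows 1 subunit gene (vertical axis, by place in the complex) in 1 library (horizontal axis, by group and replicate), coloured by log2(FPKM + 0.5) minus the mean of the 5 L4440 libraries. The ash-2 columns are mostly red, with library medians of 0.43, 0.27, 0.41 and 0.15, the first 3 hsf-1 columns are pale, and the column of ash-2 + hsf-1 replicate 4 mixes strong red with strong blue.

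In the alpha ring, whose subunits form the gate of the core, all 7 genes had a positive change and none was called (median 0.25). Only pas-4 had all 4 ash-2 libraries above every L4440 library. The change of pas-1 was 0.38 ± 0.15 (SE, adjusted p = 0.0944). The smallest was that of pas-5 (F25H2.9, chromosome I, 10566350 to 10567300), which was at 231.5, 223.0, 190.0, 228.7 and 240.8 FPKM with L4440 and at 216.1, 262.0, 251.2 and 239.6 FPKM with ash-2 RNAi. The pas-5 groups overlapped widely, with a change of 0.12 ± 0.13 (adjusted p = 0.522, limma).

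In the beta ring, 6 of 7 genes had all 4 ash-2 libraries above all 5 L4440 libraries, and the median change was 0.36. That pattern was shown by 8.84% of all genes tested and by 17.6% of the 2164 genes with at least 50 FPKM in L4440. The gene pbs-7 (F39H11.5, chromosome I, 8695205 to 8696301) encodes a beta subunit without a proteolytic site. It was at 255.2, 242.8, 268.9, 269.3 and 282.3 FPKM with L4440 and at 435.8, 336.9, 400.8 and 288.1 FPKM with ash-2 RNAi. Every ash-2 library lay above the L4440 range, replicate 4 by little, and the fitted fold was 1.37 (adjusted p = 0.00986, limma). The call was lost under 4 of 28 alternatives, among them leaving out ash-2 replicate 1.

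The 3 catalytic beta subunits were not called, although all 3 were with only L4440 and ash-2 in the fit, and under a replicate block by library name, and pbs-1 also without ash-2 + hsf-1 replicate 4. The caspase-like subunit gene pbs-1 (K08D12.1, chromosome IV, 1708803 to 1709745) was at 417.2, 388.4, 412.1, 417.8 and 404.1 FPKM with L4440 and at 622.7, 445.1, 561.4 and 479.5 FPKM with ash-2 RNAi. The trypsin-like subunit gene pbs-2 (C47B2.4, chromosome I, 12967216 to 12968280) was at 233.3, 220.9, 263.1, 234.7 and 259.7 FPKM, against 425.3, 278.7, 368.2 and 271.1 FPKM. For both genes the groups did not overlap, with changes of 0.36 ± 0.18 (adjusted p = 0.166) and 0.45 ± 0.22 (adjusted p = 0.163, limma). The chymotrypsin-like subunit gene pbs-5 (K05C4.1, chromosome I, 14719167 to 14720477) was at 201.7, 200.2, 197.7, 209.1 and 223.5 FPKM with L4440 and at 253.7, 242.7, 237.7 and 221.5 FPKM with ash-2 RNAi. Its lowest ash-2 library lay just under its highest L4440 library, with a change of 0.21 ± 0.12 (adjusted p = 0.230).

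Of the 6 base ATPases, which unfold the substrate, all had a positive change (median 0.38) and rpt-3 was called. The gene rpt-3 (F23F12.6, chromosome III, 6489793 to 6491282) was at 182.5, 168.9, 198.4, 183.1 and 203.6 FPKM with L4440 and at 294.3, 241.0, 287.9 and 208.0 FPKM with ash-2 RNAi. Its groups did not overlap (fold 1.37, adjusted p = 0.0222, limma). The call of rpt-3 was lost under 7 of 28 alternatives, among them leaving out L4440 replicate 2, ash-2 replicate 1 or ash-2 replicate 3. The gene rpt-5 (F56H1.4, chromosome I, 5741868 to 5743571) was at 199.6, 183.6, 211.7, 196.1 and 202.0 FPKM, against 301.0, 263.1, 296.0 and 237.0 FPKM with ash-2 RNAi. With 0.46 ± 0.19, its change was the second highest of the 33, with no overlap of the groups, but it was not called (adjusted p = 0.0954). Both genes had a fold of 1.37. The levels of rpt-5 with both clones, 220.9, 215.5, 254.9 and 105.8 FPKM, spread more widely, and the residual variance behind the SE is taken over all 4 groups.

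Among the other base subunits, rpn-1 and rpn-2 are large scaffolds and rpn-10 and rpn-13 bind ubiquitin chains. The gene rpn-10 (B0205.3, chromosome I, 10730712 to 10732424) was at 99.48, 100.8, 94.37, 96.58 and 119.0 FPKM with L4440 and at 128.1, 132.5, 132.3 and 115.8 FPKM with ash-2 RNAi. It was called (0.32 ± 0.11, fold 1.25, adjusted p = 0.0445, limma), although L4440 replicate 5 lay above ash-2 replicate 4. The call of rpn-10 was lost under 16 of 28 alternatives, among them leaving out any 1 of L4440 replicates 1 to 4, of ash-2 replicates 1 to 3, of hsf-1 replicates 1 and 2, or ash-2 + hsf-1 replicate 1. The other 3 genes were not called, and their changes were 0.38 ± 0.22 for rpn-1, 0.27 ± 0.15 for rpn-2 and 0.35 ± 0.14 for rpn-13.

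In the lid, 8 of 9 genes had a positive change and 5 showed no overlap of the groups. The gene rpn-6.1 (F57B9.10, chromosome III, 6959110 to 6962001) encodes the subunit that clamps the lid to the core. It was at 107.2, 97.65, 123.9, 107.7 and 113.2 FPKM with L4440 and at 178.9, 150.5, 173.6 and 132.6 FPKM with ash-2 RNAi. The fold of rpn-6.1, 1.44, was the highest of the 33 (adjusted p = 0.00793, limma), and its call was lost under 1 of 28 alternatives, the one without the 4 libraries with few detected genes. Its paralog rpn-6.2 (F59B2.5, chromosome III, 8999817 to 9001999) had the only negative change, -0.65 ± 0.38 (adjusted p = 0.239), which was called under a replicate block by library name (-0.86, adjusted p = 0.0364, limma). With ash-2 RNAi rpn-6.2 was at 3.755, 8.05, 4.349 and 8.546 FPKM, and the lower values were those of replicates 1 and 3, the libraries with few detected genes. The deubiquitinase gene rpn-11 (0.34 ± 0.14, adjusted p = 0.0938) and the lid genes rpn-12 (0.40 ± 0.15, adjusted p = 0.0662) and rpn-9 (0.28 ± 0.11, adjusted p = 0.0864) were not called, though their groups did not overlap.

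**Figure D2:**
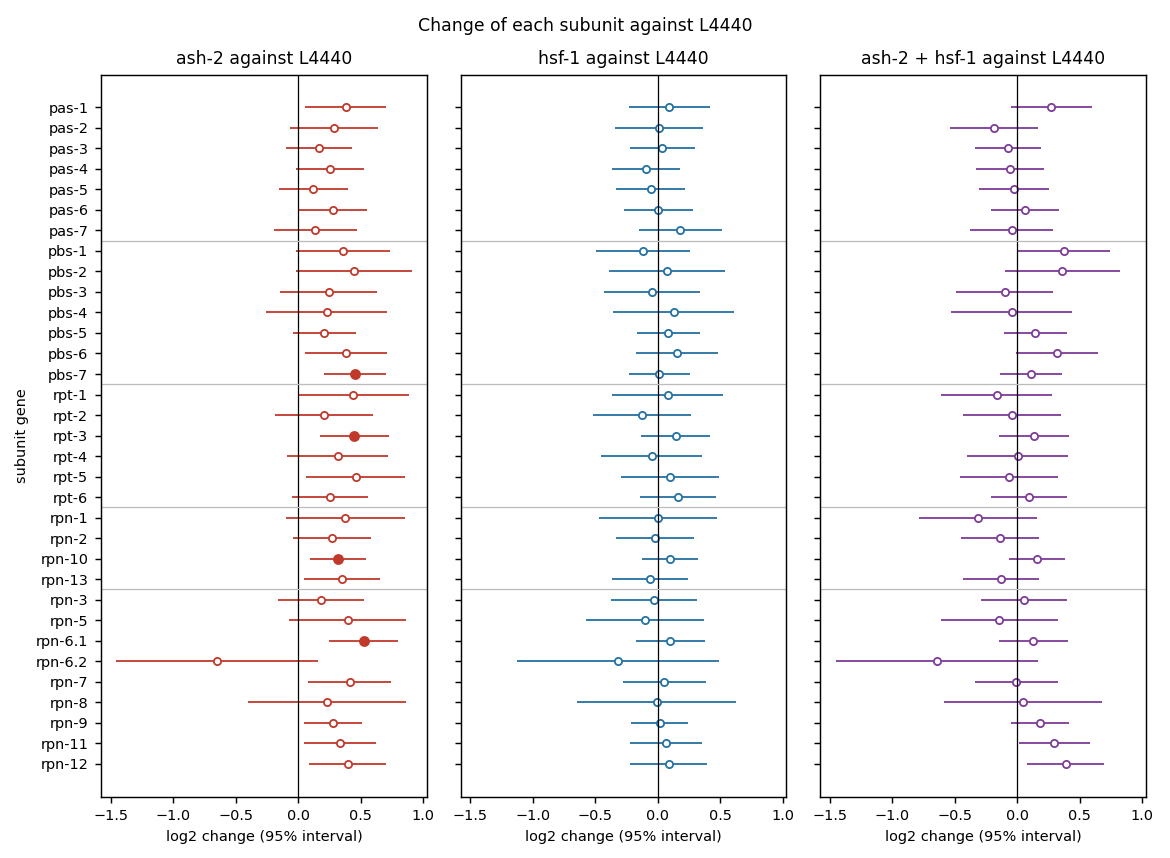
Log2 change of each subunit gene (vertical axis) against L4440 in the 3 other groups, with 95% intervals from the limma fit; filled points are called at an adjusted p under 0.05. With ash-2 RNAi the points lie right of 0 for 32 of 33 genes and 4 are filled, with hsf-1 RNAi and with both none is filled, and rpn-6.2 has the widest interval.

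Over all 33 genes, 17 had every ash-2 library above every L4440 library and none had every one below, beside 8.84% and 18.4% of all genes tested. Among the 2164 genes with at least 50 FPKM in L4440 these shares were 17.6% and 10.2%. Core and regulatory genes were alike in the count above, with 7 of 14 and 10 of 19, and their median changes were 0.27 and 0.34. The summed level of the 33 genes was 5786 to 6558 FPKM in the L4440 libraries and 6772 to 8262 FPKM in the ash-2 libraries. The ratio of core to regulatory level was 1.54 ± 0.070 (n = 4, range 1.45 to 1.61), which overlapped that of L4440. The ash-2 libraries differed in size of the shift. Replicates 1 and 3, with few detected genes, had medians of 0.43 and 0.41 and a spread over the 33 genes of 0.38 and 0.29 (SD of the log2 differences), whereas replicates 2 and 4 had medians of 0.27 and 0.15 and a spread of 0.14 and 0.09. Without rpn-6.2 the spread was 0.25 and 0.16 in replicates 1 and 3, and 0.12 and 0.08 in replicates 2 and 4. With replicates 2 and 4 alone, 20 of 33 genes lay above every L4440 library, a pattern then shown by 25.3% of all genes.

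The number of called genes varied with the libraries in the fit. With L4440 and ash-2 alone in the fit, 23 of 33 were called higher (8.13% of all genes), and without ash-2 + hsf-1 replicate 4 it was 16 (6.28%). Without the 4 libraries with few detected genes 0 were called (3.93%) and the median was 0.23, beside 0.07 for all genes. When ash-2 + hsf-1 replicate 4 was left out as well, 7 were called (13.6%), namely rpn-6.1, rpn-1, rpn-13, rpn-3, rpn-8, rpt-2 and rpt-5. The changes of rpn-6.1, pbs-7, rpt-3 and rpn-10 were then 0.37, 0.24, 0.26 and 0.28, of which rpn-6.1 alone was called (adjusted p = 0.0131, limma). The median was positive in every setting tried, from 0.19 with quantile normalization to 0.67 with a trend on transcript length removed, whereas the median of all genes moved from -0.32 to 0.06 under either.

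In the authors' deposited table for ash-2 against L4440, 23 subunit genes had a q-value under 0.05 and a higher level, and rpn-6.2 had one and a lower level. The authors' table had 17% of the tested genes higher and 19.2% lower by the same rule. None of the 33 carried the authors' significance mark, which also needs a log2 fold change of at least 1 in size. The highest fold change among them in the authors' deposited table was 0.532 on the log2 scale, for rpn-6.1.

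**Figure D3:**
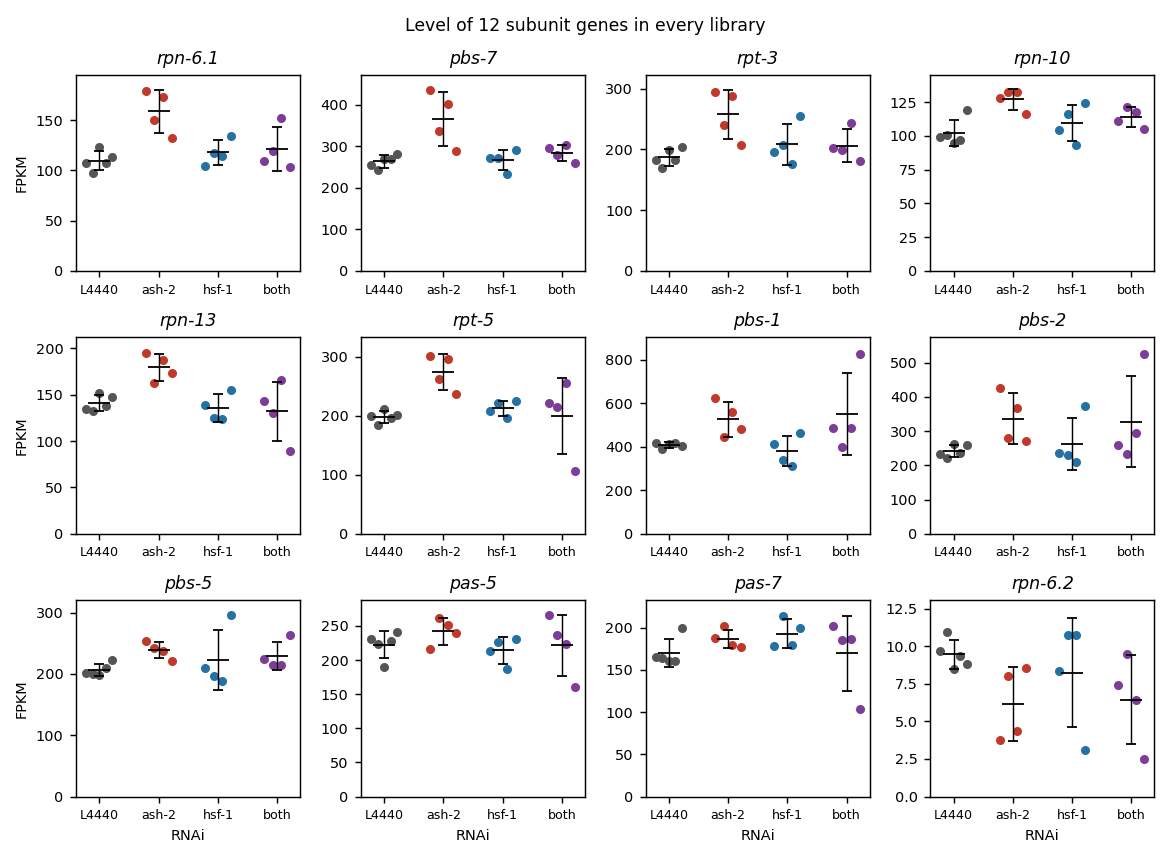
Level in FPKM (vertical axis, from 0) of 12 subunit genes in every library of the 4 groups; points are libraries and bars are the mean and SD. In ash-2 RNAi all 4 points of rpn-6.1, pbs-7 and rpt-3 lie above the L4440 points, and in the group on both clones the point of replicate 4 lies far from the rest for rpt-5, pbs-1, pbs-2 and pas-7.

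With hsf-1 RNAi, the subunit genes stayed near their L4440 levels. Of the 33, 0 had an unadjusted limma p under 0.05, beside 2846 of the 13084 genes tested. None was called in either direction, beside 7.72% of all genes called higher and 2.91% lower. That split of 1010 and 381 genes became 1163 and 994 under quantile normalization and 1198 and 736 with the length trend removed. The median change was 0.02, with 21 positive and 12 negative. For 30 of the 33 genes the 95% interval of the change lay within 1.5-fold of L4440 in both directions. No gene had groups that did not overlap, a pattern that 10.5% of all genes showed above and 6.92% below L4440. In the authors' deposited table, too, 0 of the 33 had a q-value under 0.05, beside 13.2% of genes higher and 7.96% lower.

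The highest changes were those of the alpha subunit gene pas-7 (ZK945.2, chromosome II, 10098782 to 10099854) and the ATPase gene rpt-6 (Y49E10.1, chromosome III, 12370456 to 12372608). The gene pas-7 was at 165.5, 163.9, 160.8, 161.2 and 199.5 FPKM with L4440 and at 178.5, 213.4, 179.4 and 200.2 FPKM with hsf-1 RNAi. The 4 hsf-1 values lay above those of L4440 replicates 1 to 4, and replicate 5 of L4440 lay among them (0.18 ± 0.16, adjusted p = 0.598, limma). The gene rpt-6 was at 111.6, 107.7, 121.4, 112.2 and 135.9 FPKM with L4440 and at 113.8, 125.6, 112.5 and 183.9 FPKM with hsf-1 RNAi. Its change, 0.16 ± 0.14, came from replicate 4 and was -0.0021 without it.

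The lowest changes were those of rpn-6.2 and of the ATPase gene rpt-2 (F29G9.5, chromosome V, 6016049 to 6017669). The gene rpt-2 was at 190.3, 197.2, 165.9, 193.4 and 201.8 FPKM with L4440 and at 196.7, 204.5, 167.0 and 136.2 FPKM with hsf-1 RNAi (-0.12 ± 0.19, adjusted p = 0.760). The gene rpn-6.2 was at 8.355, 10.77, 10.75 and 3.083 FPKM (-0.32 ± 0.38, adjusted p = 0.707, limma). In rpt-2 and rpn-6.2 alike replicate 4 was the lowest library of the group, and without it the change of rpn-6.2 was 0.07 and that of rpt-2 was -0.0047. With ash-2 RNAi pas-7 was at 187.5, 202.2, 179.7 and 177.3 FPKM, rpt-6 at 164.6, 130.4, 150.2 and 118.9 FPKM and rpt-2 at 183.6, 250.6, 219.2 and 224.4 FPKM, each overlapping its L4440 range.

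The genes called in ash-2 animals overlapped their L4440 ranges here. With hsf-1 RNAi rpn-6.1 was at 104.9, 117.8, 114.5 and 134.7 FPKM and pbs-7 at 271.8, 270.9, 232.8 and 291.2 FPKM. The ATPase gene rpt-3 was at 195.3, 206.7, 176.4 and 255.4 FPKM and rpn-10 at 104.4, 116.1, 93.06 and 124.1 FPKM. Replicate 4 was the highest of the 4 libraries for each of these genes. The gene rpt-5 was at 207.7, 221.9, 195.8 and 224.2 FPKM, rpn-13 at 138.8, 124.4, 124.0 and 155.2 FPKM and pas-5 at 213.7, 226.4, 186.5 and 230.4 FPKM. Of the catalytic genes, pbs-1 was at 411.9, 337.5, 311.0 and 462.9 FPKM, pbs-2 at 237.0, 228.7, 208.8 and 373.1 FPKM and pbs-5 at 209.0, 197.2, 188.4 and 296.0 FPKM. In all 3, replicate 4 was the highest hsf-1 library and replicate 3 the lowest.

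With both clones, 0 of 33 genes were called against L4440 by limma, and the median change was 0.00, with 17 positive. An unadjusted p under 0.05 was found for 3 (rpn-12, rpn-11 and pbs-1), beside 2414 of the 13084 genes tested. Of all genes 3.68% were called higher and 5.4% lower. The interval of the change lay within 1.5-fold of L4440 for 23 genes. No gene had groups that did not overlap, beside 5.24% of all genes above and 7.41% below. Replicate 4 set much of this. Without it the median was 0.16 and 31 of 33 genes had a positive change, still with 0 called, and 7 of 33 had replicates 1 to 3 above every L4440 library, beside 10.9% of all genes.

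Against ash-2 RNAi alone, 31 of 33 genes had a negative change in the animals on both clones, and the median was -0.24, beside 0.27 for all genes. Among the 2164 genes with at least 50 FPKM in L4440, the median was -0.09 and 1323 had a negative change. The medians of the subunits and of all genes were -0.50 and 0.05 with median-of-ratios scaling, -0.12 and -0.04 under quantile normalization and -0.48 and -0.02 with the length trend removed. The ubiquitin receptor gene rpn-13 (C56G2.7, chromosome III, 6340113 to 6341928) was the only one called, lower, beside 12% of all genes called higher and 3.76% lower (1569 and 492 genes, which became 1776 and 1001, 963 and 1314, and 1547 and 1216 under these 3 scalings). The rpn-13 level was 194.5, 162.5, 187.1 and 173.5 FPKM with ash-2 RNAi and 143.1, 130.1, 165.3 and 89.01 FPKM with both. The groups overlapped in 1 library each, and the change was -0.47 ± 0.15 (fold 0.720, adjusted p = 0.0419, limma). Without replicate 4 of both clones the change of rpn-13 was -0.30 and not called (adjusted p = 0.0818, limma). Its call was lost under 21 of 28 alternatives, among them leaving out any 1 of the 5 L4440 libraries, and its L4440 levels were 134.9, 132.3, 151.6, 137.3 and 148.0 FPKM. For 3 other genes, pas-4, rpn-1 and rpn-2, every library on both clones lay below every ash-2 library, and no gene showed the opposite, beside 5.18% and 12.9% of all genes. Among the 2164 genes with at least 50 FPKM in L4440 these shares were 9.89% and 5.68%.

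The genes called in ash-2 animals had mean levels between those of ash-2 alone and L4440. The level of rpn-6.1 with both clones was 109.6, 119.6, 152.1 and 103.6 FPKM (against ash-2 alone -0.40 ± 0.14, adjusted p = 0.0603, limma). For pbs-7 it was 296.2, 278.1, 303.8 and 260.7 FPKM (-0.34 ± 0.12, adjusted p = 0.0681), for rpt-3 it was 202.9, 199.4, 243.5 and 180.4 FPKM and for rpn-10 it was 111.1, 121.3, 117.7 and 104.8 FPKM. Every one of these values lay below the ash-2 mean of its gene (158.9, 365.4, 257.8 and 127.2 FPKM). Even so, the groups overlapped in each gene, as the lowest ash-2 libraries were at 132.6, 288.1, 208.0 and 115.8 FPKM. These genes were picked as called higher in the same ash-2 libraries, a choice that by itself favours lower values here. The change against ash-2 alone was -0.69 ± 0.24 for rpn-1 and -0.61 ± 0.22 for rpt-1, the largest in size of the 33, and neither was called. Replicate 4 was low in both genes, and without it the changes were -0.34 for rpn-1, which was then called (adjusted p = 0.0432, limma), and -0.30 for rpt-1 (adjusted p = 0.142). Without replicate 3 in its place both were called, at -0.85 and -0.75. The changes of rpn-6.1 and pbs-7 were both called without ash-2 replicate 4 (adjusted p = 0.0345 and 0.0165, limma), and that of rpn-6.1 also without hsf-1 replicate 4 or without ash-2 + hsf-1 replicate 3. In the authors' deposited table for this comparison 0 of 33 had a q-value under 0.05, beside 10.9% of genes higher and 5.04% lower.

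Against hsf-1 RNAi alone, 0 of 33 genes were called by limma, beside 1.28% of all genes higher and 8.42% lower. That split of 168 and 1102 genes became 668 and 1164 under quantile normalization and 616 and 1171 with the length trend removed. An unadjusted p under 0.05 was found for 1 of the 33, beside 2741 of the 13084 genes tested. It was that of the catalytic gene pbs-1 (0.49 ± 0.19, adjusted p = 0.123, limma). No gene had groups that did not overlap, beside 2.31% of all genes above and 8.77% below. The level of pbs-1 with both clones was 486.3, 398.5, 486.4 and 826.5 FPKM. Replicate 4 was the highest, and without it the change was 0.27 (adjusted p = 0.268, limma), whereas pbs-1 was called without hsf-1 replicate 4 (0.59, adjusted p = 0.0487) and without ash-2 + hsf-1 replicate 2 (0.63, adjusted p = 0.0447). The test of the interaction asks whether the effect of ash-2 RNAi differed with and without hsf-1 RNAi. It called 0 of 33 genes, beside 0.107% of all genes (2 higher and 12 lower, or 2 and 76 under quantile normalization). An unadjusted p under 0.05 was found for 6 of the 33, beside 833 of the 13084 genes tested. The median of the interaction was -0.26, beside 0.23 for all genes, with 31 of 33 negative. Among the 2164 genes with at least 50 FPKM in L4440 that median was -0.02, with 1140 negative. For rpn-6.1 the interaction was -0.50 ± 0.19 (adjusted p = 0.597) and for rpt-3 -0.46 ± 0.19 (adjusted p = 0.698, limma). Without the 4 libraries with few detected genes and without ash-2 + hsf-1 replicate 4 the median of the interaction was -0.09, beside -0.03 for all genes.

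The subunit genes scattered widely in ash-2 + hsf-1 replicate 4. Against the mean of replicates 1 to 3, 10 of the 33 were higher and 23 lower, 8 by more than 1 log2 unit. These counts were not made over all genes. The catalytic gene pbs-2 was at 524.8 FPKM there and at 258.7, 233.9 and 293.6 FPKM in the other 3, 2.01 times their level. The scaffold gene rpn-1 was at 47.48 FPKM, against 117.9, 122.5 and 137.9 FPKM, 0.380 times their level. Genes of the same ring went opposite ways, since pbs-1 stood at 826.5 FPKM and the beta subunit gene pbs-4 at 63.40 FPKM, against 168.3, 186.2 and 150.0 FPKM in the others. Both have short transcripts, of 822 and 801 bases. Replicate 4 was also the lowest of its group for pas-5 (266.2, 236.8, 223.6 and 160.5 FPKM), pas-7 (202.3, 185.7, 186.6 and 103.95 FPKM), rpt-2 (230.2, 214.3, 208.3 and 110.6 FPKM) and rpn-6.2 (7.45, 9.476, 6.415 and 2.478 FPKM). It was the highest for pbs-5 (224.4, 214.3, 214.4 and 263.1 FPKM), and lay within its group for rpt-6 (117.8, 119.2, 137.7 and 128.1 FPKM).

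The SD of the log2 differences over the 33 genes was 0.73 in that library, 0.47 in hsf-1 replicate 4 and 0.04 to 0.38 in the other 15. Across the 33 genes, the deviations of these 2 libraries from replicates 1 to 3 of their own groups had a Pearson r of 0.66 (Spearman rho 0.67), and across the 2164 well expressed genes it was 0.60 (rho 0.66). The deviation of ash-2 replicates 1 and 3 from replicates 2 and 4 had an r of 0.81 with that of hsf-1 replicate 4 over both sets of genes (rho 0.65 and 0.79), and of 0.52 and 0.44 with that of ash-2 + hsf-1 replicate 4 (rho 0.54 and 0.56). These correlations are descriptions across genes of the same libraries. The library names of hsf-1 replicate 4 and ash-2 + hsf-1 replicate 4 carry the number 5, although both are the fourth replicate in the titles. The deviation of the ash-2 + hsf-1 library fell with transcript length, with an r of -0.37 over the 33 genes and -0.45 over 2162 well expressed genes. The spread was not particular to the proteasome, with an SD of 0.59 over 8 chaperonin genes, 0.58 over 77 ribosomal protein genes and 0.83 over the well expressed genes in the same library. The part of RNA quality or library preparation in it was not tested.

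**Figure D4:**
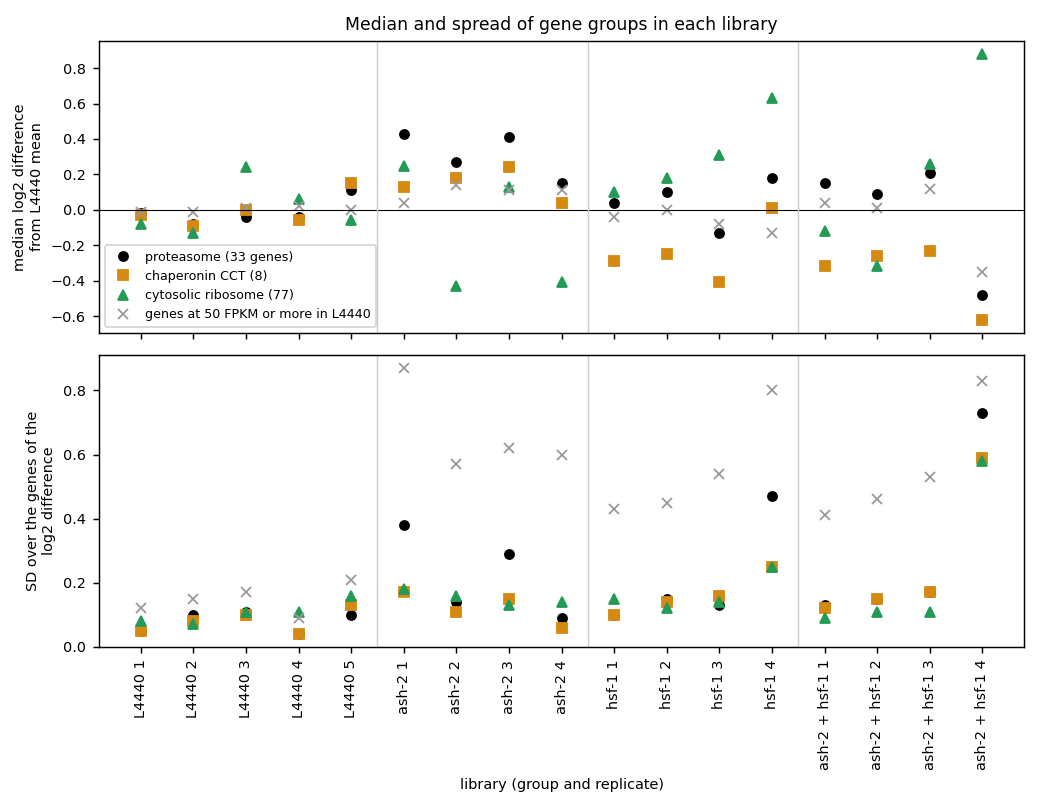
Median (upper panel) and SD over genes (lower panel) of the log2 difference from the L4440 mean in each library, for 33 proteasome, 8 chaperonin and 77 ribosomal protein genes and for genes at 50 FPKM or more in L4440. The proteasome medians of the ash-2 libraries are 0.15 to 0.43, and the proteasome SD is highest in ash-2 + hsf-1 replicate 4, at 0.73, and in hsf-1 replicate 4, at 0.47.

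The values of 2 other large complexes stood beside these. The 8 subunits of the cytosolic chaperonin CCT, which folds actin and tubulin, had a median change of 0.13 with ash-2 RNAi (0 called), of -0.23 with hsf-1 RNAi (0 called) and of -0.30 with both (1 lower, beside 5.4% of all genes). The 77 cytosolic ribosomal protein genes had medians of -0.12, 0.31 and 0.17, with 1 called higher with hsf-1 RNAi, beside 7.72% of all genes. These ribosomal medians differed widely between libraries, at 0.25, -0.43, 0.13 and -0.41 with ash-2 RNAi, at 0.10, 0.18, 0.31 and 0.63 with hsf-1 RNAi and at -0.12, -0.32, 0.26 and 0.88 with both. Replicates 1 and 3 of ash-2 stood opposite in sign to replicates 2 and 4, and replicate 4 was the highest of the other 2 groups. Beside them stood the proteasome medians of 0.32, 0.02 and 0.00. Against ash-2 RNAi alone, the chaperonin genes with both clones had a median of -0.48, with 8 of 8 negative and 5 called lower. In that comparison the ribosomal median was 0.29 (0 called) and the proteasome median -0.24 (1 of 33 called lower). Of all genes 3.76% were called lower there. The difference between the complexes was not tested.

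Genes that act with the proteasome were taken as 4 lists. Of 6 regulators of subunit genes, among them skn-1 and its processing factors png-1 and ddi-1, 0 were called in any contrast. Of 8 proteasome-associated genes, usp-14, a deubiquitinase that docks on the base, was higher with ash-2 RNAi (110 ± 4.67 FPKM with L4440 and 140.6 ± 11.8 with ash-2, 0.35 ± 0.12, adjusted p = 0.0441, limma). Its call was lost under 13 of 28 alternatives, among them leaving out any 1 of the 5 L4440 libraries. Of 10 ubiquitin and unfoldase genes, ufd-1, a cofactor of the CDC-48 unfoldase, was higher with ash-2 RNAi (80.01 ± 4.53 and 99.06 ± 5.60 FPKM, 0.31 ± 0.09, adjusted p = 0.0277), a call lost under 8 of 28 alternatives, among them leaving out any 1 of L4440 replicates 1 to 3 or of ash-2 replicates 1 to 3. These were 1 of 8 and 1 of 10 genes, beside 4.17% of all genes called higher. The unfoldase gene cdc-48.2 was lower with both clones than with ash-2 alone (204.4 ± 15.03 and 150.3 ± 25.8 FPKM, -0.46 ± 0.13, adjusted p = 0.0273, limma), 1 of 10 beside 3.76% of all genes. Its call was lost under 8 of 28 alternatives, among them leaving out ash-2 replicate 2 or 3 or ash-2 + hsf-1 replicate 4 (-0.32, adjusted p = 0.0557). The ubiquitin and unfoldase genes had a median of 0.27 with ash-2 RNAi, with 9 of 10 positive. Of the COP9 signalosome, whose subunits resemble those of the lid, 7 of 8 genes were tested and 0 were called, and their median with ash-2 RNAi was -0.30.

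Markers of other cell types were summed over the tested genes of each list, and calls among them stand beside 4.17% of all genes called higher and 15.5% lower with ash-2 RNAi. The summed level of 20 germline and oocyte genes was 5583 to 6647 FPKM in the L4440 libraries and 6912 to 8543 FPKM in the ash-2 libraries (median change 0.23, 1 called higher). Its largest members were cpg-1, at means of 1356.9 and 1789.3 FPKM, and cpg-2, at 1345.7 and 1808.7 FPKM, and 6 of the 20 genes had a negative change. That of 11 sperm genes was 606 to 642 FPKM with L4440 and 49.49 to 143 FPKM with ash-2 RNAi, with all 11 called lower. Summed intestine markers were at 3425 to 4836 FPKM with L4440 and at 2230 to 3069 FPKM with ash-2 RNAi. The protease gene asp-1 made up most of that sum, at a mean of 3029.9 FPKM with L4440 and 1719.8 with ash-2 RNAi, and 2 of 9 intestine genes were called lower. Hypodermis markers summed to 1496 to 1768 FPKM with L4440 and to 1893 to 2295 FPKM with ash-2 RNAi, with 1 of 10 called higher and 2 lower. Of these, col-19 made up most of the sum, at means of 1331.9 and 1512.8 FPKM, and sqt-3 was at means of 120.25 and 430.95 FPKM. Body wall muscle markers overlapped, at 3943 to 4345 and 3656 to 4516 FPKM, as did neuron markers, at 457.4 to 554.1 and 477.5 to 595.7 FPKM.

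With hsf-1 RNAi, where no subunit was called, 5 of these 6 sums stood apart from L4440, while 7.72% of all genes were called higher and 2.91% lower. Higher were sperm (846.4 to 1525 FPKM, 0 of 11 called), body wall muscle (4652 to 5197, 0 of 10 called), neuron (678.8 to 789.2, 4 of 8 called higher) and hypodermis markers (2063 to 2525, 3 of 10 called higher). The intestine sum was lower, at 2300 to 3220 FPKM, with 2 of 9 genes called higher and 3 lower. In that sum asp-1 was at a mean of 3029.9 FPKM with L4440 and 1282.2 with hsf-1 RNAi. Of the 9 intestine genes 4 had a positive change and 5 a negative one, and ifb-2 was at means of 94.67 and 294.49 FPKM. The germline and oocyte sum, at 4745 to 6110 FPKM, overlapped that of L4440.

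With both clones intestine markers summed to less than with L4440, at 1380 to 2087 FPKM (1 of 9 called higher and 2 lower). Much of that sum was again asp-1, at a mean of 3029.9 FPKM with L4440 and 663.64 with both clones. Of the 9 intestine genes 2 had a positive change and 7 a negative one. The germline and oocyte (4348 to 7497), sperm (290.2 to 716.9), muscle (4154 to 5420), neuron (523.3 to 714.3) and hypodermis sums (656.9 to 2700) overlapped those of L4440. Of the sperm genes 11 of 11 had a negative change (median -0.65) and 4 were called lower, and of the neuron genes 1 of 8 was called higher, beside 3.68% and 5.4% of all genes called higher and lower. Against ash-2 RNAi alone, where 31 of 33 subunit genes had a negative change, 17 of 20 germline and oocyte genes did too (median -0.23, 1 called lower), and all 11 sperm genes were called higher (median 2.13). The part of the cell makeup in the subunit levels was not tested.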

How the data were processed

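Whole-animal mRNA was sequenced in 17 libraries prepared as TruSeq stranded mRNA, per the labels' protocols. The submitters' processing notes name cutadapt, HISAT2, StringTie, DESeq2 and build WBcel235; versions and settings were not given in the sources used here. FPKM values per gene and library were made by the authors and deposited. The fold change, which is the ratio of 2 mean levels, its log2 value, the p-value and the q-value were deposited by the authors in 3 comparison tables, and are cited where named.

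From the deposited FPKM, log2(FPKM + 0.5) was computed, which understates changes of low genes. Genes with at least 1 FPKM in at least 4 libraries were fitted over all 17 libraries with limma 3.58.1 (trend and robust settings) in R 4.3.3, with no replicate block. Within a contrast, p took a Benjamini-Hochberg adjustment over all 13084 genes, and an adjusted p under 0.05 was called. The fit was tested on simulated data. Tables and plots used Python 3.11.15, pandas 2.3.3, numpy 2.4.6 and matplotlib 3.10.9. Depth was estimated from low FPKM steps and is uncertain; precision rests on the spread between libraries. Coordinates come from the RefSeq gene table of WBcel235, matched for 26780 of 26786 genes, and 99.1% had a transcript length.

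Values in every library are given for subunits called in any contrast, for pbs-1, pbs-2 and pbs-5, for rpn-6.1 and rpn-10, and for the 2 highest and 2 lowest changes with ash-2 and with hsf-1 RNAi. Pathway genes are named where called. Libraries or genes given beyond this rule (such as rpn-1, rpt-1 and pbs-4) were chosen after their values were seen. The members and lists were chosen with earlier results of these data known. Alternatives were the pseudocount, no filter, median-of-ratios scaling, quantile normalization, removal of a transcript-length trend, a replicate block, only the groups compared, and leaving out each replicate or the 4 libraries with few detected genes. Leaving out ash-2 + hsf-1 replicate 4 beside those 4 was added after seeing the data. No subunit sequence is shown.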

Additional observations from a re-analysis of the deposited data

Results flagged for a closer look

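Subunit levels in which 1 library stood apart from its group were sought in all 132 pairs of a subunit and a group, by the gap of the extreme library relative to the range (Dixon's 95% limit). Chance alone marks about 1 group in 20, and 13 of the 132 were marked. Of these, 6 were high values in L4440 replicate 5, namely pas-1 at 259.5 FPKM, pas-2 at 241.2, pas-7 at 199.5, rpn-2 at 155.2, rpn-10 at 119.0 and rpn-12 at 175.3. The same library had the highest summed level of the 33 genes in its group, 6558 FPKM, and its core genes a median of 0.11 above the group mean on the log2 scale. Another 5 were in ash-2 + hsf-1 replicate 4, where pas-4 was low at 112.3 FPKM, pas-7 at 103.95, pbs-3 at 91.32 and rpn-2 at 92.40, whereas rpn-12 was high at 278.4. In that library the regulatory genes had a median of -0.60 against the L4440 mean. The last 2 were low values in hsf-1 replicate 3, rpn-7 at 172.2 FPKM and rpn-12 at 131.0. The spread over the 33 genes stood apart from its group in hsf-1 replicate 4 (SD 0.47) and in ash-2 + hsf-1 replicate 4 (SD 0.73). The genes share libraries, so the marks within a library are not independent.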

How the results depend on the processing

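The count of 4 subunits called with ash-2 RNAi became 8 with a transcript-length trend removed, where 14.5% of all genes were called higher and 14.6% lower. It became 23 with only the 2 groups fitted (8.13% of all genes higher) and 0 without the 4 libraries with few detected genes (3.93%). Without those and ash-2 + hsf-1 replicate 4 it was 7 (13.6%). Leaving out 1 replicate gave 1 (without ash-2 replicate 1, 2.81%) to 16 (without ash-2 + hsf-1 replicate 4, 6.28%). The median of 0.32 became 0.65 with median-of-ratios scaling and 0.67 with the length trend removed. Under quantile normalization 3 of the 4 (pbs-7, rpn-6.1 and rpt-3) and no other subunit were called, beside 1632 of the 13084 genes called higher. Median-of-ratios scaling also called 3 subunits, beside 1274 of the 13084 genes called higher. These were rpn-6.1, the only one of the 4, with rpn-3 and rpt-4. With hsf-1 RNAi, 1 subunit (rpn-8) was called without the 5 libraries, beside 35.7% of all genes. The single call of both clones against ash-2 was 0 with no filter, median-of-ratios scaling, quantile normalization and the length trend removed. Of all genes 7.74%, 21.2%, 17.4% and 21.1% were called there. The call was also lost with only the groups compared (9.22% of all genes called) and without the libraries with few detected genes (14.8%). Leaving out 1 replicate gave 0 to 7 (7 without ash-2 + hsf-1 replicate 3, beside 20.5% of all genes). Against hsf-1, 1 (pbs-1) was called under quantile normalization (beside 14% of all genes) and without the libraries with few detected genes (17.3%). With 1 replicate left out, 0 to 1 were called. The 1 was pbs-1, without hsf-1 replicate 4 (beside 16.5% of all genes) and without ash-2 + hsf-1 replicate 2 (9.57%). Against L4440 both clones gave 3 (pbs-4, rpn-3 and rpn-8) without the 5 libraries, beside 17.1% of all genes. The change of pas-5 with ash-2 RNAi was -0.0016 under quantile normalization. With hsf-1 RNAi, rpn-6.2 became 0.07 and rpt-6 became -0.0021 without hsf-1 replicate 4, without the 4 libraries and without the 5, and over single replicates left out they ran from -0.48 to 0.07 and from -0.0021 to 0.23. The change of rpt-2 became -0.0047 under the same 3. The cause of these shifts was not tested.

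Replicate numbers were not taken to pair the samples, since not every same-numbered pair correlated above 0.1 (14 of 24 by title, with r from -0.69 to 0.69, and 14 of 22 by library name, from -0.50 to 0.69). A library correlated best with its own number in 20 of 48 and 20 of 44 comparisons with another group, and whether some numbers share a batch was not tested. A replicate block by title gave 6 calls for ash-2 against L4440, beside 3.93% of all genes called higher and 16.1% lower, and 0 for both clones against ash-2. By library name it gave 14, beside 6.0% of all genes called higher and 25.4% lower. Of the 14, 13 were higher, among them pbs-1, pbs-2 and pbs-5, and rpn-6.2 was lower. For both clones against ash-2 the block by library name gave 2, pbs-7 and rpn-6.1, and not rpn-13. Beside them 18.1% of all genes were called higher and 4.26% lower. Against hsf-1 it gave 1 (pbs-1), beside 2.14% of all genes higher and 11.1% lower. Counts of fragments were not used here, so depth limits low genes such as rpn-6.2 to an unknown extent.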
